A study of Saccharomyces cerevisiae with 4 samples.

Results

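The genes described here were those whose transcript level was higher in budding yeast lacking both Snf2 and Ume6 than in wild type and in each strain lacking 1 of the proteins. They were chosen from the expression values themselves. After each library was scaled by its median ratio to the geometric mean of the genes, a member had a mean of at least 5 scaled RPKM (reads per kilobase of gene, relative to library size) and a value of scaled RPKM + 1 at least about 1.5-fold that in each of the other 3 libraries. Of 6659 genes in the table, 6228 passed the mean and 173 met the whole rule, which is 2.78% of those tested. Leaving out the mating-type genes MF(ALPHA)1 and SAG1 and the marker gene MET17 gave 170 members. This step of about 1.5-fold is also the one past which a gene is counted as higher or lower below. The margin of a member is its log2 distance in the double deletion above the highest of the other libraries.

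Snf2 is the motor subunit of the Swi/Snf complex, which uses ATP to slide and evict nucleosomes and is needed for full transcription of many inducible genes. Ume6 is a DNA-binding protein that recognises the URS1 element and recruits the Rpd3-Sin3 histone deacetylase and the Isw2 remodeler, and during growth on glucose it holds the early genes of meiosis shut. Both proteins also bear on genes of metabolism that respond to the nutrients at hand.

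Transcripts, after removal of ribosomal RNA, were sequenced in 4 haploid Saccharomyces cerevisiae strains of the BY4741/2 background, all labelled his-ura-leu-. They were wild type (WT), snf2∆ (snf2-delta:NatMX), ume6∆ (ume6-delta:KanMX) and the double deletion ume6∆snf2∆, which carries both cassettes. Cells were taken in mid-log growth in rich glucose medium, and each strain gave 1 library, with no statement of how many clones it stands for. No difference therefore has a replicate check, no test was made, and every 95% interval on a ratio of levels is an exact Clopper-Pearson interval that covers counting error only. Intervals on a share of genes or promoters are exact binomial intervals over genes, which are not independent replicates.

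The libraries were scaled by the submitters to between 17.4 and 30.2 M reads. Among genes above 0 and matched to the R64 reference, the median gene had 946 to 1458 reads. SNF2 stood at 64.2 and 43.1 scaled RPKM in WT and ume6∆ and at 0.108 and 0.143 in the 2 strains deleted for it. UME6 stood at 32.7 and 19.9 scaled RPKM in WT and snf2∆ and at 0.0154 and 0.125 in its deletions. The strains also differed in mating type. The summed level of 7 a-cell genes was 974 scaled RPKM in WT, 27.4 in snf2∆, 1093 in ume6∆ and 81.5 in the double deletion, and that of 5 alpha-cell genes was 52.3, 3043, 49.2 and 7702 in the same order. None of these 12 genes was at 0 in any library. In such bulk RNA, fewer cells of a type and less RNA per cell cannot be told apart. MET17, of the methionine pathway, was at 2134 scaled RPKM in the double deletion and at 0.831 to 1.30 in the others, and LYS2, of lysine synthesis, was at 0.349 in the double deletion and at 106 to 308 in the others. The double deletion was thus set apart from all 3 other libraries by these marker genes as well as by carrying both deletions, and for every member these differences cannot be told apart.

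Chromosome IX stood apart as well. Over its 205 kept genes the median log2 change was 1.01 for the double deletion against WT, 0.87 against snf2∆ and 0.12 against ume6∆, while over the 5482 located genes elsewhere it was -0.03, -0.05 and -0.02. In ume6∆ against WT the chromosome IX median was 0.90, and in snf2∆ against WT it was 0.05. On the left arm, with 164 kept genes, the double deletion exceeded ume6∆ by a median of 0.06, and on the right arm, with 41, by 0.41. Of the 170 members, 134 could be placed on the R64 reference genome, and 19 of these lay on chromosome IX. They were 9.27% of its kept genes against 2.10% elsewhere. With the genes of this chromosome scaled on their own, an alternative chosen after seeing the data, 3 of the 19 stayed members (DAL1, EST3 and ATG45). That scaling used a single factor for both arms, so the higher right-arm median against ume6∆ was not scaled separately. Some unplaced members have systematic names that begin with YIL, as YIL177C on this chromosome does. They are not among the 19 and were not rescaled, so 19 is a lower bound. DNA copy number was not measured, and its part in these values was not tested. Members on chromosome IX are marked as such below.

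**Figure D1:**
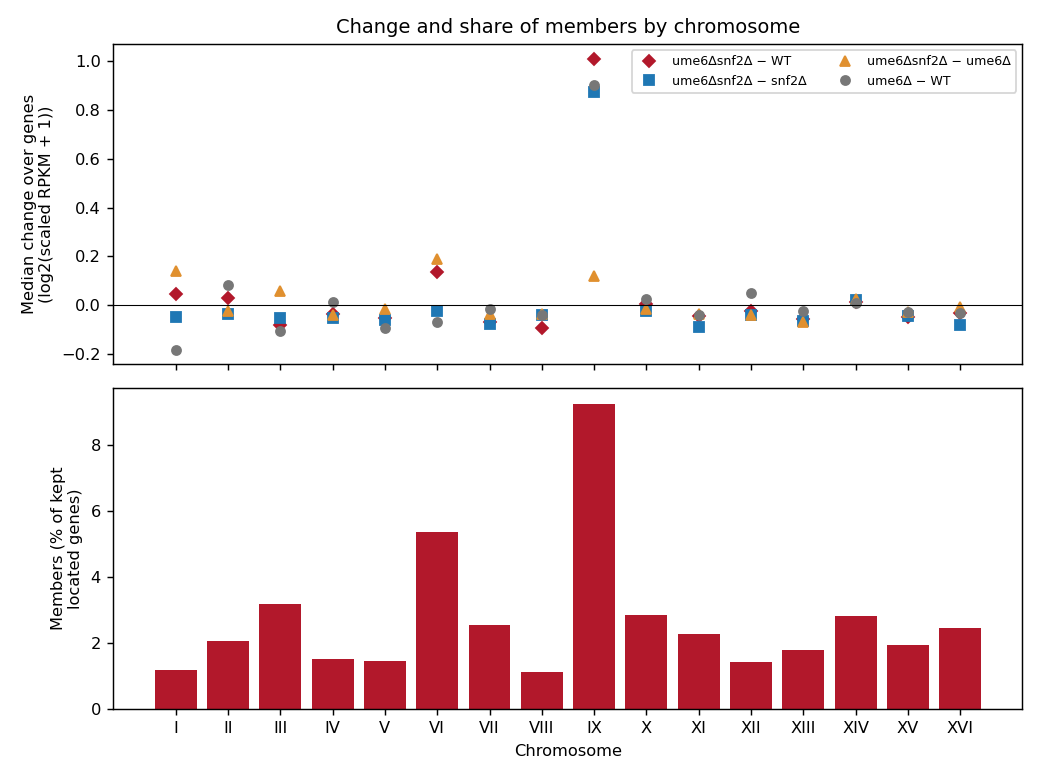
The upper panel gives the median difference in log2(scaled RPKM + 1) over the kept genes of each chromosome for 4 comparisons of strains, and the lower panel the share of kept located genes that are members. Chromosome IX has the highest medians for the double deletion against WT and snf2∆ and for ume6∆ against WT, and the highest share of members, 9.27%.

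By the rule, all 170 members were higher in the double deletion than in each other strain, so their folds against it are descriptions. Over the 6228 genes, 19.3% were higher than in WT by the same step and 20.7% lower, 12.9% were higher than in snf2∆ and 12.5% higher than in ume6∆, and 16.0% lower than in ume6∆. The median member was 1.21 higher on the log2 scale than in WT, 0.98 higher than in snf2∆ and 0.92 higher than in ume6∆. Margins ran from 0.588 to 3.09, with a median of 0.78. Members were less abundant than the typical gene, with a median of 13.4 scaled RPKM in WT against 40.7 over all kept genes, and of 34.6 in the double deletion against 40.3. Of the 134 members whose reads could be recovered, all 134 had lower 95% counting bounds above 1 for the ratios to all 3 other libraries. These are the ratios the rule chose on, so the bounds describe the depth and support nothing. The same rule turned to another library gave 490 genes for WT (7.87%), 312 for ume6∆ (5.01%) and 94 for snf2∆ (1.51%).

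Of the 170 members, 104 moved by less than the 1.5-fold step in both snf2∆ and ume6∆ against WT, a share of 61.2% that is not far from the 52.1% of all kept genes. In snf2∆, 31 members were higher than in WT and 9 lower, beside 11.5% and 14.6% of all genes. In ume6∆, 47 were higher and 9 lower, beside 19.3% and 18.8%. A further count is 25 members that were higher in both single deletions (14.7% against 5.38% of all genes). The other members with a change were 18 higher in ume6∆ alone, 5 higher in snf2∆ alone and 18 lower in at least 1 single deletion. The library next below the double deletion was ume6∆ for 76 members, snf2∆ for 67 and WT for 27. The double deletion exceeded the sum of the 2 single changes by at least the step for 115 members and fell short of it by as much for 3, beside 19.0% and 18.2% of all genes. Both counts use the library that chose the members and say nothing apart from the rule.

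**Figure D2:**
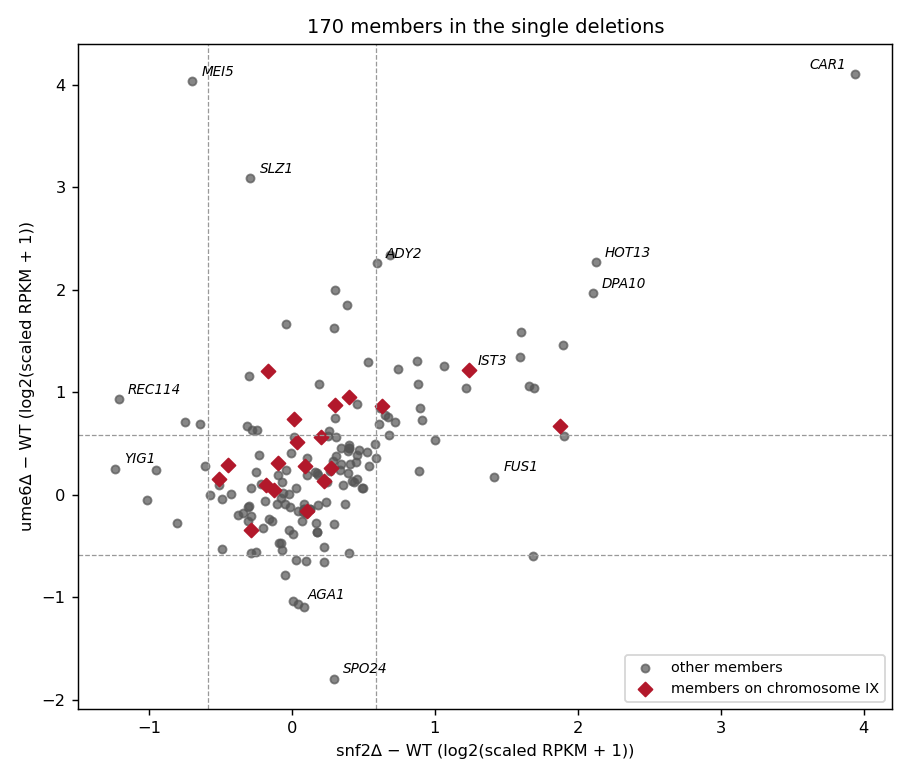
Each point is 1 of the 170 members, with its snf2∆ minus WT difference on the horizontal axis and its ume6∆ minus WT difference on the vertical axis, both in log2(scaled RPKM + 1). Dashed lines mark the 1.5-fold step in either direction. Most points lie in the central box, CAR1 is far out on both axes, and members placed on chromosome IX are drawn as diamonds.

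The largest margin, 3.09, belonged to DPA10, which had 0.904 scaled RPKM in WT, 7.20 in snf2∆, 6.45 in ume6∆ and 68.7 in the double deletion. Its ratio to WT was 76.0 (36.5 to 190) from 348 reads against 7. Each single deletion was also above WT, and the double deletion far above both. The gene next to it, CDA1, which encodes a chitin deacetylase of the spore wall, had 0.715, 5.38, 3.72 and 14.3 scaled RPKM in the same order of strains. The genes start 14.3 kb and 13.1 kb from the start of MET17 on chromosome XII, and the part of that marker in their levels was not tested.

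The 3 enolase-related genes near chromosome ends came next. ERR3 had 2.18 scaled RPKM in WT, 2.35 in snf2∆, 1.83 in ume6∆ and 14.4 in the double deletion. ERR1 and ERR2 carried identical values in every library, 3.79, 4.22, 3.36 and 21.1. The other 3 libraries lay close together for all of these genes. ERR1 and ERR2 share all of their 50-base words with other places in the genome and ERR3 shares 64.1%, so which copy gave the reads is uncertain.

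IRC13 had 77.5 scaled RPKM in WT, 113 in snf2∆, 192 in ume6∆ and 786 in the double deletion. It overlaps SNR17A, a gene of the U3 small nucleolar RNA, on the same strand, and reads of the overlap may belong to either. SNR17A itself did not follow it, with 5261, 9722, 10170 and 9982 scaled RPKM. Among the other members with large margins, RCK1, a protein kinase tied to the oxidative stress response, had 4.83, 3.09, 5.23 and 18.8. NRG2, a repressor of glucose-repressed genes, had 26.9, 27.7, 24.0 and 71.7. In NRG2 the 3 lower libraries differed little beside the double deletion, while in RCK1 snf2∆ minus WT was -0.51 on the log2 scale. SOM1, a subunit of the mitochondrial inner membrane peptidase, had 22.1, 17.96, 23.2 and 59.3 scaled RPKM, and DMO1 had 7.87, 5.98, 6.83 and 33.0. PYC1, a pyruvate carboxylase, was above WT in both single deletions, with 97.0 in WT, 204 in snf2∆, 234 in ume6∆ and 529 in the double deletion.

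**Figure D3:**
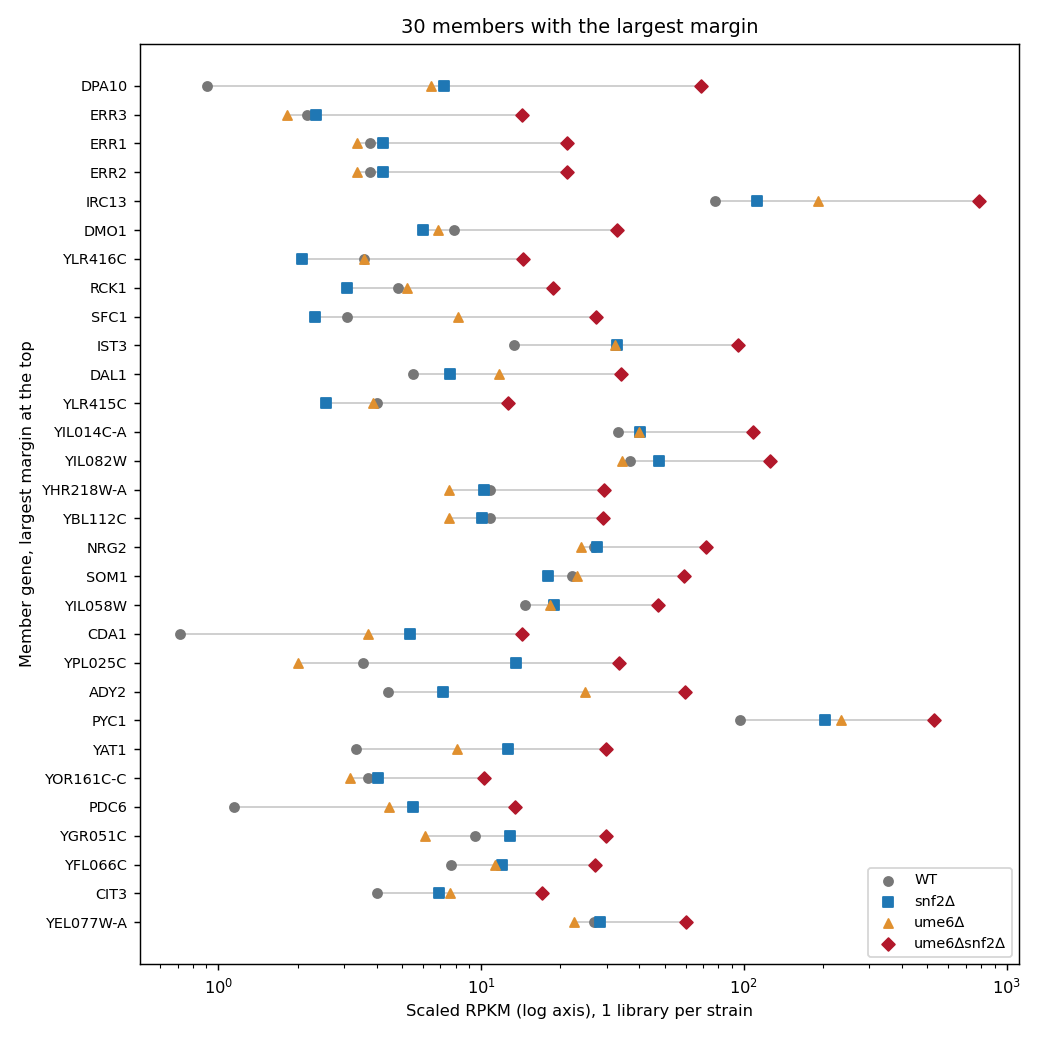
Scaled RPKM on a log axis in each of the 4 libraries for the 30 members with the largest margins, 1 row per gene and 1 symbol per strain. The double deletion is rightmost in every row, as the rule requires, and the spread of the other 3 symbols differs from gene to gene, from WT far below both single deletions in DPA10 and CDA1 to 3 values close together in ERR3 and NRG2.

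Genes for growth on carbon sources other than glucose gave 7 members of 54 kept in the list (13.0%, beside 2.73% of all kept genes). SFC1, the mitochondrial succinate-fumarate carrier, had 3.10 scaled RPKM in WT, 2.33 in snf2∆, 8.15 in ume6∆ and 27.3 in the double deletion. The acetate transporter ADY2 had 4.40, 7.16, 24.9 and 59.6, a ratio to ume6∆ of 2.39 (2.15 to 2.66). Both genes stood second highest in ume6∆. YAT1, a carnitine acetyltransferase, had 3.34, 12.7, 8.08 and 29.9, with both single deletions above WT. FOX2, an enzyme of peroxisomal fatty acid oxidation, had 10.3, 10.02, 34.9 and 61.6. POX1, which carries out the first step of the same pathway, had 5.81, 5.76, 8.02 and 12.8. JEN1, the lactate permease, and ADH7, an alcohol dehydrogenase, had lower values in ume6∆ than in WT, by more than the step for JEN1 and by less for ADH7. JEN1 had 16.1, 16.5, 10.01 and 26.8 scaled RPKM, and ADH7 had 8.54, 8.10, 5.59 and 13.7. Over the whole list, 18 of 54 genes were higher and 19 lower in the double deletion than in WT, with a median of -0.25. POX1, JEN1 and ADH7 were chosen after their values were seen.

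Of the respiratory and citric acid cycle genes, 2 of 57 were members. CIT3, a mitochondrial citrate synthase, had 4.01, 6.89, 7.60 and 17.0 scaled RPKM, and NDE2, an external NADH dehydrogenase of mitochondria, had 6.51, 4.35, 4.23 and 14.4. In this list 25 of 57 genes were lower in the double deletion than in WT and 5 higher. Among the hexose transporters and their regulators, 3 of 26 were members. HXT9 had 3.24, 6.81, 7.99 and 15.7 scaled RPKM and HXT11 had 6.34, 10.8, 9.99 and 20.6, and these transporters share over 60% of their 50-base words with other sites (61.9% and 67.1%). MIG2, a glucose repressor, had 56.3, 86.8, 102 and 177. All 3 stood above WT in both single deletions and highest in the double deletion, HXT11 in ume6∆ by just under the step.

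Genes that let cells use poor nitrogen sources gave 6 members of 33 (18.2%). DAL1, DAL2 and DAL4 encode the allantoinase, the allantoicase and the allantoin permease, and they lie in a cluster on chromosome IX. DAL1 had 5.52 scaled RPKM in WT, 7.59 in snf2∆, 11.7 in ume6∆ and 34.0 in the double deletion. DAL2 had 14.2, 13.0, 14.8 and 25.8, and DAL4 had 4.25, 7.12, 8.60 and 13.8. With chromosome IX scaled on its own, DAL1 kept a margin of 1.13, while DAL2 and DAL4 had -0.16 and -0.01. These genes are on the right arm, where the double deletion exceeded ume6∆ by a median of 0.41 against 0.06 on the left. The single factor for both arms does not remove that difference. PUT1, the proline oxidase, is on chromosome XII and had 7.05, 5.65, 11.5 and 23.9 scaled RPKM. UGA4, the permease for gamma-aminobutyrate, had 1.51, 2.08, 6.76 and 13.7. Both were next highest in ume6∆. In the list as a whole the double deletion was above ume6∆ for 18 of 33 genes and below it for 3, and it was above WT for 9 and below for 9.

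CAR1, the arginase, differed from the others in this list, and was chosen after its values were seen. It had 17.1 scaled RPKM in WT, 277 in snf2∆, 310 in ume6∆ and 514 in the double deletion. It stood 16.2-fold (14.8 to 17.8) above WT in snf2∆ and 18.2-fold (16.6 to 19.9) above WT in ume6∆, and the double deletion exceeded ume6∆ by 1.66-fold (1.61 to 1.71). The double deletion was 3.22 below the sum of the 2 single changes on the log2 scale. The upstream sequence of CAR1 holds the URS1 core bound by Ume6, and that of DAL2 holds GATAAG, the letters read by the nitrogen regulators Gln3 and Gat1, on both strands (CTTATC is its reverse complement). The stretches run from 250 to 101 bases before the start codon, read from the R64 genome from RefSeq (chrXVI:339694-339843, plus strand; chrIX:410557-410706, plus strand), and capitals mark the motif letters.
CAR1: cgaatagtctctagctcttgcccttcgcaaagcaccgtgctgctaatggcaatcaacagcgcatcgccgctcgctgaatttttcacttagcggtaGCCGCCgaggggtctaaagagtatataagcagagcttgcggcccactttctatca
DAL2: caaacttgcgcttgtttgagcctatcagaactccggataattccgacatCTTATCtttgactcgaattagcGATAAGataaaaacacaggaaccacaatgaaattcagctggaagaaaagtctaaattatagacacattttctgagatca

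The pheromone response gave 7 members of 32 kept genes in its list (21.9%). In this pathway a receptor passes the signal through a G protein and a kinase cascade to the factor Ste12, which binds the pheromone response element TGAAACA. GPA1, the G protein alpha subunit, had 66.7 scaled RPKM in WT, 79.4 in snf2∆, 72.8 in ume6∆ and 132 in the double deletion. FAR1, which halts the cell cycle in mating cells, had 43.9, 56.0, 60.8 and 99.2. KAR4, a transcription factor of karyogamy genes, had 20.3, 30.9, 26.4 and 59.1. In GPA1, FAR1 and KAR4 both single deletions lay within the 1.5-fold step of WT, KAR4 in snf2∆ only just. As a plain ratio, KAR4 in snf2∆ was 1.52-fold (1.37 to 1.70) WT. FUS1, which acts in cell fusion, had 8.91, 25.4, 10.2 and 49.7, a ratio to snf2∆ of 1.95 (1.80 to 2.12). The fusion protein gene PRM1 had 10.7, 12.7, 6.43 and 25.98. AGA1, the anchor subunit of a-agglutinin, had 27.8, 28.8, 12.8 and 51.5. PRM1 and AGA1 were lowest in ume6∆, and FUS1 was higher in the 2 snf2∆ strains, which are also the 2 with high alpha-cell genes. PRM2, on chromosome IX, had 4.96, 5.97, 5.56 and 12.6. In the list as a whole, 11 of 32 genes were higher and 7 lower in the double deletion than in WT. The a-cell and alpha-cell sums given above move with these strains, and their part in the pheromone genes was not tested. GPA1 and FAR1 were chosen after their values were seen.

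Of the 7 pheromone members, 5 held TGAAACA on either strand between 250 bases before and 50 bases after the start codon (KAR4, FUS1, PRM1, PRM2 and AGA1), as did 10 of the 25 other genes of the list and 7.48% of all promoters. FUS1 and PRM1 are shown as examples that hold the element more than once, and KAR4 also held it at 2 sites. In FUS1 the element is at 187 and 160 bases before the start codon. In PRM1 it is at 181, 170 and 159, on the reverse strand as TGTTTCA. The stretches run from 250 to 101 bases before the start codon (chrIII:71553-71702, plus strand; chrXIV:110667-110816, plus strand), with the element in capitals.
FUS1: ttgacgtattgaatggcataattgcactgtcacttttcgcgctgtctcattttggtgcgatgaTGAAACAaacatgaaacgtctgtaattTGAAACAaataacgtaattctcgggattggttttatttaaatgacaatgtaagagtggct
PRM1: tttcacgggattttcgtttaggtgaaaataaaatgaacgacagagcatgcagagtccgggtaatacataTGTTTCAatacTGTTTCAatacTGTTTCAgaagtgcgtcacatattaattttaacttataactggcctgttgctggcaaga

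**Figure D4:**
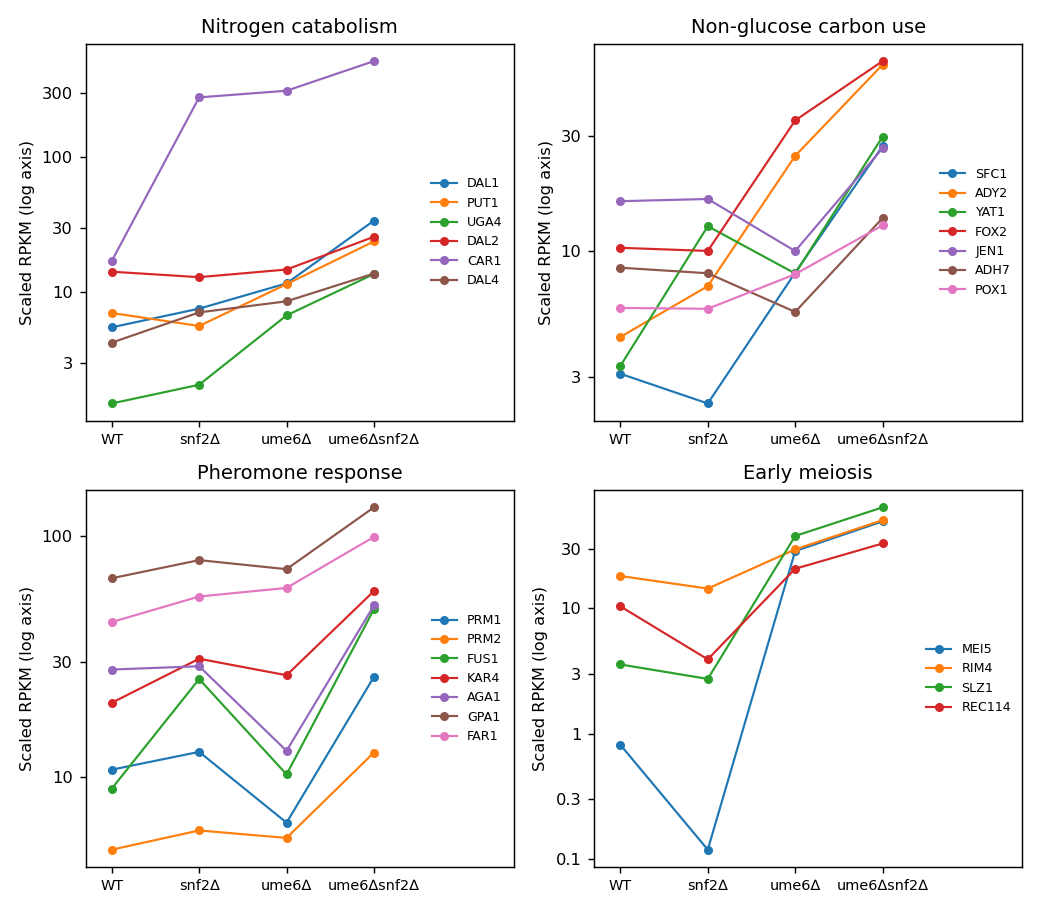
Scaled RPKM on a log axis in the 4 libraries for the members of the nitrogen, carbon, pheromone and early meiotic lists, 1 line per gene; lines join the values of a gene and imply no order of strains. All lines are highest at ume6∆snf2∆ by the rule, CAR1 is already high in both single deletions, AGA1 and PRM1 dip in ume6∆, and the early meiotic genes are high in ume6∆ and lowest in snf2∆.

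Early meiotic genes, the best known targets of Ume6, gave 4 members of 35 (11.4%), each above ume6∆ in the double deletion by 0.65 to 0.77 on the log2 scale. MEI5, which assists the meiotic recombinase Dmc1, had 0.815 scaled RPKM in WT, 0.118 in snf2∆, 28.7 in ume6∆ and 49.6 in the double deletion, where it exceeded ume6∆ by 1.73-fold (1.53 to 1.95). Its snf2∆ value rests on 2 reads. SLZ1, of the complex that methylates meiotic messenger RNA, had 3.57, 2.74, 38.0 and 64.3. In REC114, needed for meiotic double-strand breaks, the order was the same, with 10.4, 3.92, 20.8 and 33.1. RIM4, an RNA-binding protein of meiosis, had 18.2, 14.4, 29.7 and 50.7. All 4 were lowest in snf2∆ and second highest in ume6∆. Over the 35 genes of the list, 30 were higher in the double deletion than in WT and 30 higher in ume6∆ than in WT, but 4 were higher and 1 lower in the double deletion than in ume6∆, with a median of 0.09.

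The URS1 core GCCGCC, on either strand from 250 bases before to 50 after the start codon, was in 16 of the 133 member promoters that could be read (12.0%, 7.04 to 18.8) and in 5.12% of all 6020 promoters. The members that held it included MEI5, SLZ1 and REC114 of the early meiotic list, and 19 of the 31 other kept genes of that list also held it. It was also upstream of CAR1, ADY2, PDC6, INO4, DON1, DMO1 and OM14. The longer form TAGCCGCCGA, whose letters were read from SLZ1 so that SLZ1 matches by construction, was in 3 member promoters (2.26%, 0.468 to 6.45; CAR1, SLZ1 and YIG1) and in 0.415% of all. MEI5 and SLZ1 are shown over the same stretch, 250 to 101 bases before the start codon (chrXVI:321731-321880, minus strand; chrXIV:271272-271421, minus strand), with the core in capitals.
MEI5: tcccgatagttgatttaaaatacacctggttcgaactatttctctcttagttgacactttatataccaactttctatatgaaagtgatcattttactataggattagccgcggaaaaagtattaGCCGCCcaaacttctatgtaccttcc
SLZ1: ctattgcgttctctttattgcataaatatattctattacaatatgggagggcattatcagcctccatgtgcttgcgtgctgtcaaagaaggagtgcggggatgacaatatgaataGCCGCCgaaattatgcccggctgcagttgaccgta

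Of the other motifs searched, GATAAG was in 21.1% of member promoters (14.5 to 29.0) against 14.6% of all, and AAAATTTT, an element of ribosome biogenesis genes, in 3.76% (1.23 to 8.56) against 9.003%. GATAAG was in 2 of the 6 members of the nitrogen list and in 13 of its 27 other genes. The stress element AGGGG was in 22.6% against 21.6%, and the Gcn4 letters TGACTC in 7.52% against 7.96%. A match gives letters and not a bound site.

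**Figure D5:**
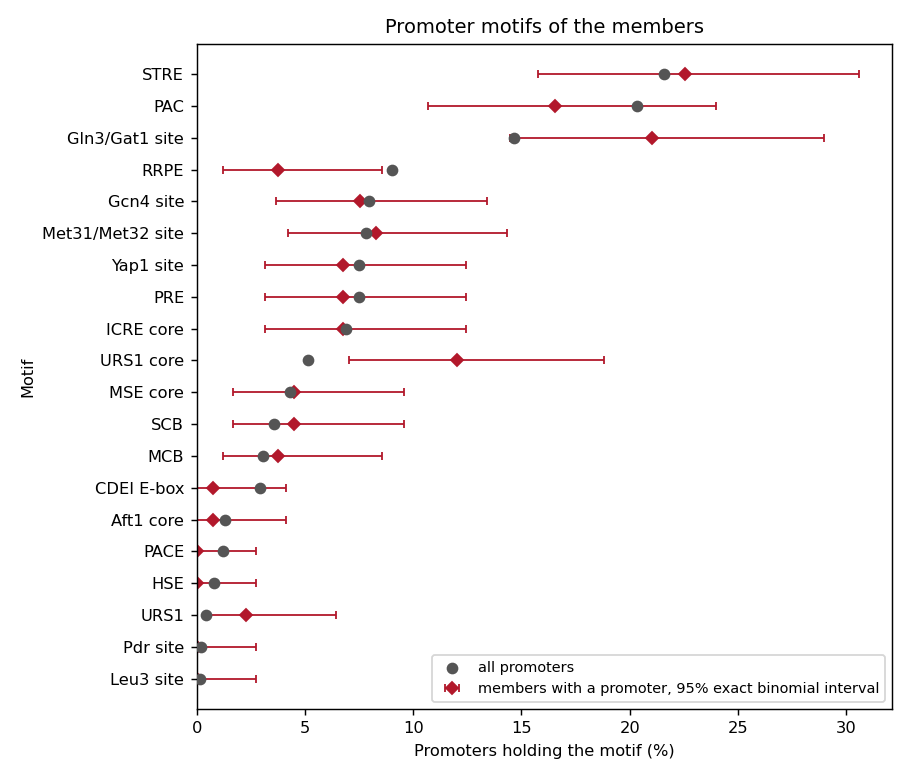
Percent of promoters that hold each of 20 motifs on either strand, with diamonds and exact binomial 95% intervals for the 133 member promoters and circles for all 6020 promoters. The URS1 core lies above the share of all promoters and the RRPE element, AAAATTTT, below it, each with the circle outside its interval; the longer URS1 form was read from the member SLZ1. The Gln3/Gat1 site is GATAAG.

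Later sporulation genes gave 3 members of 36, CDA1 and ADY2 described above and DIT1. DIT1, which acts in making the dityrosine of the spore wall, had 3.30, 4.87, 4.37 and 7.96 scaled RPKM. DON1, of the prospore membrane, and SPO24 were chosen after their values were seen, since a single deletion lowered each. DON1 had 17.5 scaled RPKM in WT, 9.60 in snf2∆, 14.3 in ume6∆ and 31.6 in the double deletion. SPO24 was the most abundant member, with 1581 in WT, 1937 in snf2∆, 456 in ume6∆ and 2921 in the double deletion. It was thus lowest in ume6∆ and 2.68 higher on the log2 scale in the double deletion than there.

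Of the general stress genes, 3 of 49 were members, while 31 of the 49 were lower in the double deletion than in WT. PAI3, the proteinase A inhibitor, had 24.5, 19.9, 16.3 and 47.3 scaled RPKM. SPG4, a stationary-phase gene, had 5.39, 4.55, 4.11 and 10.6, and XBP1, a stress-induced repressor on chromosome IX, had 6.84, 4.50, 7.70 and 13.9. PAI3 and SPG4 were lower in both single deletions than in WT, by less than the step. TSA2, a peroxiredoxin, was the single member of 38 oxidative and drug response genes, with 8.94, 14.1, 15.1 and 26.9. TIR2, a cell wall mannoprotein, was 1 of 25 genes of subtelomeric families, with 11.2, 9.27, 7.32 and 19.2.

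Of the sulfur amino acid genes, 2 of 39 were members. PDC6, a pyruvate decarboxylase induced when sulfur is short, had 1.15, 5.50, 4.46 and 13.5 scaled RPKM. SOA1, a transporter of sulfur compounds on chromosome IX, had 8.79, 9.41, 10.9 and 19.5. Over the list, 26 of 39 genes were higher than in WT in snf2∆ and 23 in ume6∆, and in both strains MET17 stayed at its low level. None of the 58 amino acid synthesis genes under Gcn4 was a member, beside 2.73% of all kept genes. At that share a list of this size would hold few members or none, so their absence says little. Of the lipid genes, 2 of 49 were members, and they are the partners INO2 and INO4 that together activate phospholipid synthesis. INO2 had 23.1, 22.1, 23.4 and 41.5, and INO4 had 20.2, 26.8, 27.5 and 49.0. The thiamine gene THI11 was 1 of 34 vitamin genes, with 4.47, 9.14, 5.45 and 16.5 scaled RPKM, and it shares 79.0% of its 50-base words with other sites.

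Among splicing factors, MSL1, a protein of the U2 particle on chromosome IX, was the single member of 50, with 20.2, 20.4, 34.4 and 57.9 scaled RPKM. IST3, a subunit of the RES complex that holds pre-mRNA in the spliceosome, was outside that list and also on chromosome IX, with 13.3, 32.9, 32.4 and 94.8. Scaled with its own chromosome its margin was 0.56, just under the step. BUD13, its partner in the complex, and CWC15 and YJU2, other spliceosome proteins, were found among the members after their values were seen, apart from YJU2, which is also the member nearest the threshold. CWC15 had 19.3, 36.8, 35.5 and 67.5, and BUD13 had 17.9, 22.4, 26.9 and 41.5. Also chosen in this way were the Aurora kinase IPL1, with 5.68, 6.996, 9.29 and 14.9, and its partner SLI15, with 13.1, 17.6, 18.4 and 31.7. MSL1, IST3, CWC15, BUD13, IPL1 and SLI15 were all lowest in WT, MSL1 by only 0.01 below snf2∆ on the log2 scale. WT was the lowest library for 81 of the 170 members, so this is not particular to these genes. PCL1, a cyclin of late G1, was the single member of 38 cell cycle and DNA genes, with 74.5, 59.8, 68.4 and 138. The carbonic anhydrase gene NCE103, chosen after its values were seen, had 30.6, 101, 63.97 and 190.

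The lists of heat shock chaperones, purine and pyrimidine synthesis, iron, copper and zinc, phosphate, histones, chromatin factors, small nucleolar RNAs, proteasome and nutrient transcription factors held no member, and neither did that of the a-cell genes. These lists are short, from 7 kept a-cell genes to 48 kept nutrient transcription factors. At the 2.73% of all kept genes, each would hold few members or none, so their absence says little. UGA4 was also the single member of 22 amino acid permeases, and AGA1 that of 44 cell wall genes.

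The members were unevenly placed. Of the 134 on the reference, 26 (19.4%, 13.1 to 27.1) lay within 30 kb of a chromosome end, against 5.42% of all kept genes. Sequence shared with other places over at least 50% of their 50-base words was found in 16 members (11.9%, 6.98 to 18.7) against 2.13% of all. They included the ERR, IMA and HXT genes and the terminal genes YIL177C on chromosome IX and YJL225C. The isomaltase genes IMA3 and IMA4 carried identical values, 10.4, 9.02, 11.1 and 18.7 scaled RPKM, although they are on chromosomes IX and X. Members were shorter than the typical gene, with a median length of 910.5 bp against 1215 bp. Of the 170 members, 36 (21.2%, 15.3 to 28.1) had no entry in the reference used, against 8.69% of kept genes, and they are not placed here.

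There were 9 pairs of adjacent members, with 16 members in all. No such count was made for other sets of genes, so whether 9 pairs is many is not known. CDA1 and DPA10 ended 322 bp apart on opposite strands. DAL1 and DAL4 were 825 bp apart and DAL4 and DAL2 431 bp. FUS1 and HBN1 ended 63 bp apart on opposite strands, and HBN1, a nitroreductase-like gene, had 5.15, 17.7, 17.6 and 34.3 scaled RPKM. In ume6∆, HBN1 was above WT by more than the 1.5-fold step and FUS1 was not. HXT9 lay between IMA4 and YJL218W, and YJL218W had 3.75, 4.89, 5.17 and 10.9. Of the placed members, 5 (3.73%, 1.22 to 8.49) overlap another annotated gene, near the 3.15% of all kept located genes. Overlap was not computed for the unplaced members. Among the 5 is SRG1, a noncoding RNA transcribed across the promoter of the serine synthesis gene SER3. SRG1 was chosen after its values were seen, and had 55.3, 210, 83.0 and 361 scaled RPKM. SER3 had 97.7, 1322, 52.0 and 1177, so both were high in snf2∆ and in the double deletion. SRG1 and SER3 overlap on the same strand, so reads of the overlap may belong to either and their levels are not separate measurements there. The kit does not mark strand, so reads from facing ends that overlap cannot be told apart.

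Splicing efficiency, the authors' fraction for each intron, was given for 3 members. OM14, a mitochondrial outer membrane protein, had 44.6, 60.6, 48.6 and 102 scaled RPKM, and the efficiency of its intron was 0.707 in WT, 0.701 in snf2∆, 0.690 in ume6∆ and 0.714 in the double deletion. These are close together, as are the medians over 292 introns with a value in every library (0.685, 0.701, 0.694 and 0.693). The meiotic helicase gene HFM1 had 8.55, 7.93, 9.90 and 15.6 scaled RPKM, and its efficiency was 0 in WT, 0.0803 in ume6∆ and 0.488 in the double deletion, with none given for snf2∆. The efficiency of the REC114 intron was 0 in WT, 0.325 in ume6∆ and 0.402 in the double deletion, with none given for snf2∆. The depth behind these fractions is unknown, so they carry no interval.

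At the threshold, YJU2, YKL123W and YMR172C-A were just inside, with margins of 0.588, 0.588 and 0.589, and NNF1, HES1 and RHO5 just outside, with 0.583, 0.582 and 0.582. YJU2 had 21.7, 21.4, 21.9 and 33.4 scaled RPKM, and NNF1 had 33.9, 41.2, 26.3 and 62.2.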

How the data were processed

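Gene expression was deposited by the authors as RPKM for each of the 4 strains, and splicing as a fraction per intron; the snf2∆ column, which has cells without a number, was read as the same fraction, and its unit is not stated by the authors. The submitters' processing notes name CASAVA, STAR 2.4.0 and the build sacCer3; which program counted reads and how the fraction was formed is not given in the sources used here. In all, 3 lines naming no gene (0.0811% to 0.221% of summed RPKM) were left out. Each column was divided by a factor, the median of its ratios to the per-gene geometric mean over 6547 genes above 0 in every library (1.06 in WT, 0.984 in snf2∆, 0.857 in ume6∆ and 1.10 in ume6∆snf2∆). Changes are on the log2(scaled RPKM + 1) scale, which understates those of low genes. RPKM times gene length gave whole reads, within 0.05, for 99.5% to 99.6% of values, and ratio intervals (95%) use these reads. PCR copies are not independent molecules, so they cover counting error only. A floor of 3 reads is 0.0995 to 0.172 deposited RPKM for a gene of 1 kb. Names were matched to RefSeq R64, the assembly behind sacCer3 (5986 of 6659). The calculations were tested on simulated data and used Python 3.11.15, pandas 2.3.3 and scipy 1.17.1. Named genes are the 15 largest margins with a standard symbol, up to 4 per list, and those beside the threshold. They also include the deleted and left-out genes, members with introns and the 4 adjacent pairs with the largest summed margin. Others are stated where they appear as chosen after their values were seen. YIG1, EST3, ATG45, YIL177C and YJL225C were chosen in that way too, and IMA3 and IMA4 were named outside these rules. The members and lists were chosen with earlier results of these data known.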

Additional observations from a re-analysis of the deposited data

Results flagged for a closer look

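For 8 of the members named, loss of 1 protein lowered the transcript by at least about 1.5-fold in cells that had the other protein. In cells that lacked the other protein the same loss went with a level higher by at least as much, but the rule that chose the members fixes that, and with it a double deletion well above the sum of the 2 single changes. The lower level in the single deletion is therefore the measurement to look at, and with 1 library per strain no difference between backgrounds was tested. Loss of Snf2 gave this pattern for MEI5, REC114, DON1 and YIG1, where the double deletion was above that sum by 1.47, 1.86, 1.89 and 2.02. Loss of Ume6 gave it for AGA1, PRM1, SPO24 and JEN1, with 1.88, 1.63, 2.38 and 1.31. Over all 170 members, 9 were lower in snf2∆ than in WT and 9 lower in ume6∆. The MEI5 value in snf2∆ rests on 2 reads, and its ratio to WT there was 0.145 (0.0162 to 0.618).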

How the results depend on the processing

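With 1 library per strain no replicate could be left out. No paired analysis was possible because each strain has 1 library. Without scaling, the number of members rose from 170 to 412, all 170 among them, since scaling moves the median of all genes by 0.35 between the double deletion and ume6∆ and by 0.16 between it and snf2∆. A margin of 1 left 34. The other settings gave 127 to 240: 127 with a pseudocount of 5, 134 with a mean of at least 10, 154 with chromosome IX scaled on its own and 173 with the mean taken over the deposited RPKM (both chosen after seeing the data), 185 with a pseudocount of 0.1, 196 with upper quartile scaling and 240 with no filter. The counting bound left 134, those with recovered reads.

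By list, without scaling the carbon list had 11 members, the early meiotic 10, the later sporulation 8, the hexose 6 and the amino acid synthesis list 1. A margin of 1 left 1 nitrogen gene, 3 carbon genes and 0 in the pheromone, early meiotic, hexose and stress lists, and a pseudocount of 5 left 4 carbon genes. The median change against WT was 0.9996 with a pseudocount of 5; against snf2∆ it was 1.13 unscaled and 0.81 with that pseudocount, and against ume6∆ 1.26 and 0.79. Of 74 named members, IMA3 and IMA4 not among them, 58 kept the margin with a pseudocount of 5. The Aft1 core was in 0% of members with the upstream part alone. The URS1 core was in 15.2% of the 92 members with unique sequence, away from ends and off chromosome IX, a setting chosen after seeing the data. The share of all promoters was not computed under that setting, so the 15.2% has no value to be set beside. The double deletion was the shallowest library, and 36 members have no recovered reads.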
